A study of Mus musculus with 2 samples.

Results

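Genes of sodium and calcium transport were examined in the cerebral cortex of Rbfox3-/- and wild-type mice. They were taken by symbol from the gene table, as 7 of 37303 gene models, with their 25 isoform rows of 90835. *Atp1b1* encodes the beta-1 subunit of the sodium pump, *Atp2a2* encodes the calcium pump SERCA2 of the endoplasmic reticulum, *Atp2b1* to *Atp2b4* encode the plasma membrane calcium pumps PMCA1 to PMCA4, and *Slc8a1* encodes the sodium-calcium exchanger NCX1. No measured value entered the choice of the 7 symbols, although earlier results of these data were known when the genes were proposed. All 7 had a single gene model each, and all 7 were above 10 FPKM (fragment counts scaled to the length of the gene model and to the depth of the library) in both libraries.

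The KO group was 1 library from Rbfox3-/- mice, homozygous for the C57BL/6N-Rbfox3tm1a(EUCOMM)Hmgu allele, and the WT group was 1 library from littermate wild-type mice of heterozygous matings. The tissue of both was the cortex of the right hemisphere, taken from males at P56, and the labels give the strain as B6. How many mice went into a library is not stated. Each genotype has a single library, so the spread between mice cannot be measured. No difference below has an error or a test, and each value describes these 2 libraries.

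The sodium pump uses ATP to export sodium and import potassium, which sustains the membrane potential of neurons and the sodium gradient on which many transporters depend. Its catalytic alpha subunit needs a beta subunit to fold and to reach the plasma membrane. Calcium that enters a neuron during firing is removed by PMCA pumps and by sodium-calcium exchangers at the plasma membrane, and SERCA pumps return calcium to the endoplasmic reticulum. RBFOX3, known as NeuN, is a splicing regulator of neurons that binds TGCATG, with U for T in RNA, mainly in introns beside alternative exons.

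The 5 calcium pumps are P-type ATPases, which take the phosphate of ATP onto an aspartate within a signature of 5 residues (aspartate, lysine, threonine, glycine and again threonine). The stretches that encode it are shown because they mark which of the 7 genes are pumps that hydrolyse ATP themselves. A search of the annotated coding sequences (GENCODE vM21, GRCm38) in frame found it once in each of the 4 calcium pump genes shown here, at codon 351 in *Atp2a2*, 475 in *Atp2b1*, 499 in *Atp2b2* and 466 in *Atp2b4*. It was not found in *Atp1b1*, the non-catalytic subunit of its pump, or in *Slc8a1*, an exchanger driven by the sodium gradient. The 15 bases of the signature are in capitals.
Atp2a2, chr5:122469371-122469400, minus strand: tgctcaGATAAGACAGGCACActtaccaca
Atp2b1, chr10:98999811-98999840, plus strand: tgttcaGATAAAACAGGAACCctgacgatg
Atp2b2, chr6:113789894-113789923, minus strand: tgctcaGACAAGACAGGAACGctgaccacc
Atp2b4, chr1:133731804-133731833, minus strand: tgctccGATAAGACAGGCACActgaccatg

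Optional exons of the PMCA genes change parts of the pump that bind its regulators. In *Atp2b1* and *Atp2b3* an optional exon of 154 bases lies in the stretch for the carboxy-terminal tail, where calmodulin binds and activates the pump. Both exons are shown since annotated coding transcripts of these pumps differ there. Positions with the same base in both genes are in capitals, and they make up 98 of the 154 (63.6%).
Atp2b1, chr10:99019278-99019431, plus strand: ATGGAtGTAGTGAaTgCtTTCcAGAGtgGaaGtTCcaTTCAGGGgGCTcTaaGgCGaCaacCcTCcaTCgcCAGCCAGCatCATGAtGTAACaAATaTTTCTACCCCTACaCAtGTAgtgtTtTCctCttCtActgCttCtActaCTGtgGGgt
Atp2b3, chrX:73559864-73560017, plus strand: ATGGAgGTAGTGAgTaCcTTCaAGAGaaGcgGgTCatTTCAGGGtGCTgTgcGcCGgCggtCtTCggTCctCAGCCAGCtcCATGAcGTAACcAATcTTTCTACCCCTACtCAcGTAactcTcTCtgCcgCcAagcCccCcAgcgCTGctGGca

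In *Atp2b2*, 3 short optional exons encode an insert in an intracellular loop, and each is present in 1 and skipped by 3 of the annotated coding transcripts that span it. They are printed because annotated coding transcripts of *Atp2b2* differ there.
Atp2b2, 33 bases, chr6:113803747-113803779, minus strand: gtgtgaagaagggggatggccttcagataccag
Atp2b2, 60 bases, chr6:113802486-113802545, minus strand: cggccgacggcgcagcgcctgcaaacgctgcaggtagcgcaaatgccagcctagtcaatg
Atp2b2, 42 bases, chr6:113797110-113797151, minus strand: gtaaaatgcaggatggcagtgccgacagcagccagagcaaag

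In *Slc8a1*, whose RNA differed most between the libraries, 3 short exons that only some annotated coding transcripts hold lie in the stretch for the large intracellular loop that regulates the exchanger.
Slc8a1, 21 bases, chr17:81442203-81442223, minus strand: ccctgttgttgaatgagcttg
Slc8a1, 21 bases, chr17:81441861-81441881, minus strand: gtgggttgtcaaatgtcttat
Slc8a1, 15 bases, chr17:81441652-81441666, minus strand: gaaaagagatgtatg

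The 7 genes were at similar levels in both libraries with the exception of *Slc8a1*. *Atp1b1* was the most abundant, at 936 FPKM in KO and 891 FPKM in WT. *Atp2a2* followed with 261 FPKM in KO and 237 FPKM in WT, and *Atp2b1* with 185 FPKM in KO and 179 FPKM in WT. These 3 values are all slightly higher in KO, by 3.35% to 10.1%. *Atp2b2*, a pump with fast kinetics, was at 107.6 FPKM in KO and 108.1 FPKM in WT, and *Atp2b4* was at 62.5 FPKM in KO and 60.5 FPKM in WT. The 2 least abundant genes were *Atp2b3*, a PMCA found mainly in brain, at 17.1 FPKM in KO and 15.4 FPKM in WT, and *Slc8a1*, at 17.3 FPKM in KO and 12.05 FPKM in WT. *Slc8a1* thus stood above *Atp2b3* in the KO library and below it in the WT library. The order of the other 5 genes was the same in both libraries, and whether neighbours in the order differ beyond the spread between animals cannot be said.

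**Figure D1:**
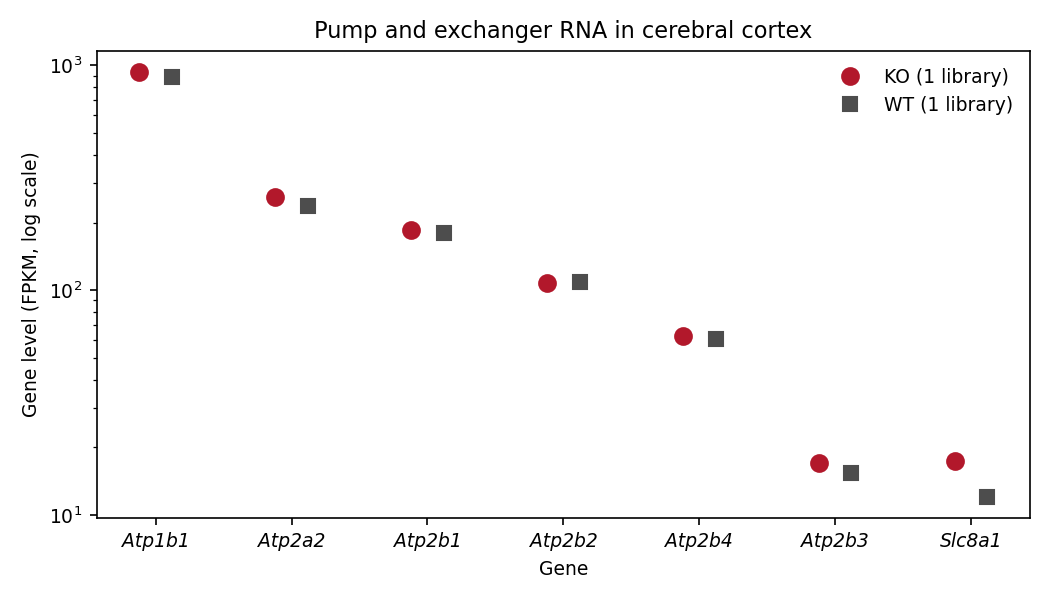
Gene level in FPKM on a log axis for the 7 genes, with the KO library as circles and the WT library as squares. Only *Slc8a1* is visibly apart, at 17.3 FPKM in KO and 12.05 FPKM in WT, and *Atp1b1* is highest at 936 FPKM in KO and 891 FPKM in WT.

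Each ratio below is KO over WT on the log2 scale, with 1 FPKM added to the level in each library first. *Slc8a1* had a log2 ratio of 0.49, or 1.44-fold higher in KO without the added FPKM. The log2 ratio was 0.14 for *Atp2b3* and 0.14 for *Atp2a2*, 0.07 for *Atp1b1*, 0.05 for *Atp2b1* and 0.05 for *Atp2b4*. *Atp2b2* had -0.01, the only ratio below 0. The median of the 7 was 0.07, beside a median of 0.02 over the 13042 genes that averaged 1 FPKM or more.

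A gene was counted as higher or lower when the log2 ratio reached a 1.2-fold difference. By this rule 1 of the 7 genes, *Slc8a1*, was higher in KO and 0 were lower. Of the 13042 genes, 10.8% were higher and 8.14% lower, so 1 of 7 is close to the background and is not a result about the group. Since all 7 genes lay above 10 FPKM, the same shares were also taken over the 6561 genes that averaged 10 FPKM or more, a limit chosen after the data were seen. There 8.58% were higher and 6.39% lower. The central 95% of log2 ratios of those genes lay between -0.37 and 0.42, and 97 of them (1.48%) had a log2 ratio at or above that of *Slc8a1*. The other 6 genes lay between percentiles 44.8 and 77.4 of the same genes. None of the 7 reached a 2-fold difference.

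**Figure D2:**
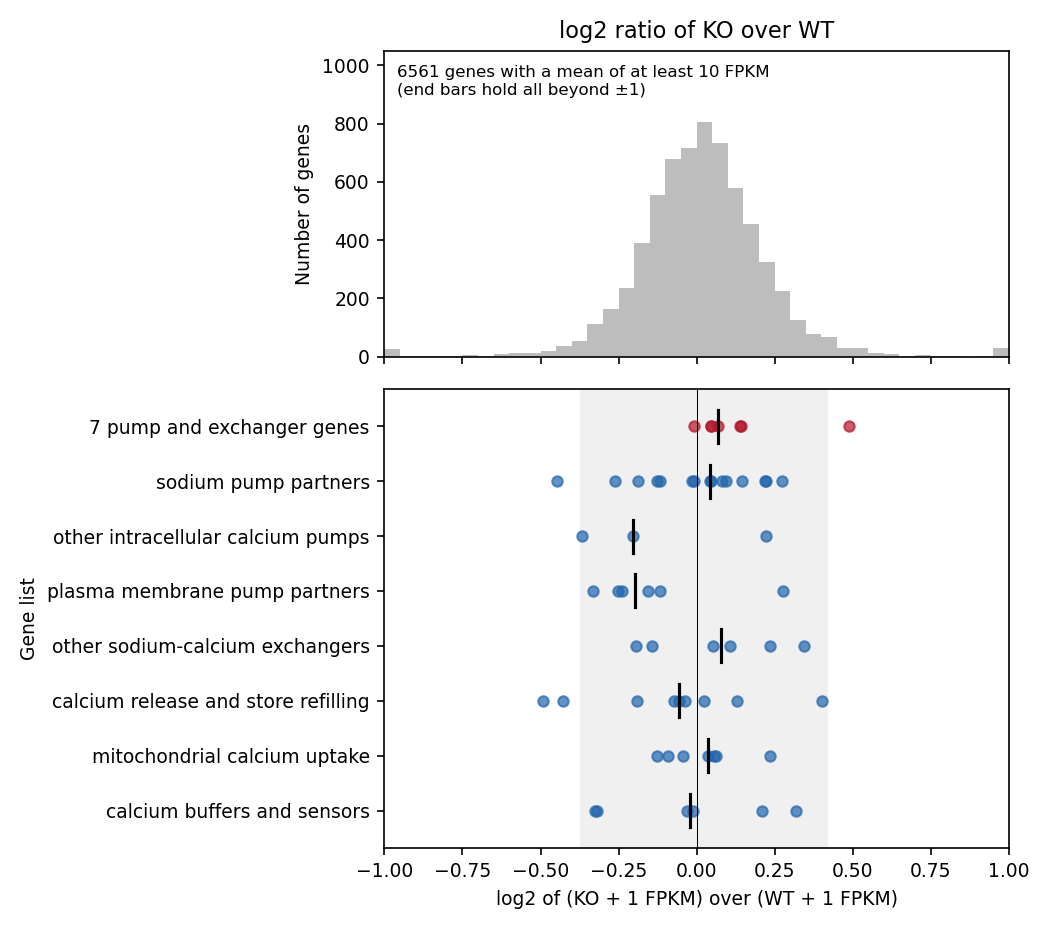
Upper panel, the number of genes by log2 ratio of KO over WT for the 6561 genes averaging 10 FPKM or more. Lower panel, the log2 ratio of single genes (points) and the median (bar) of the 7 genes and of 7 lists of related genes averaging 1 FPKM or more, over a grey band for the central 95% of the upper panel. *Slc8a1*, at 0.49, is the only one of the 7 beyond the band, which ends at 0.42.

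The other FPKM of these libraries give the setting of these values. *Rbfox3* was at 6.46 FPKM in KO and 57.3 FPKM in WT, a check of the labels. Markers of cortical excitatory neurons were present in both, with *Slc17a7* at 302 FPKM in KO and 276 FPKM in WT. Markers of some other cells and regions differed between the libraries, and none of the measured markers was at 0 in either. All 8 oligodendrocyte markers were at least 1.2-fold lower in KO, with a summed level of 1106 FPKM in KO and 1621 FPKM in WT. All 9 measured striatal markers were lower as well (sum 84.3 FPKM in KO and 223 FPKM in WT), and so were the 3 choroid plexus markers that averaged 1 FPKM or more. The choroid plexus sum over all 6 markers was 6.23 FPKM in KO and 231 FPKM in WT, most of it *Ttr*. All 8 immediate early genes were higher in KO, with a sum of 352 FPKM in KO and 109 FPKM in WT. Of 6 astrocyte markers 1 was at least 1.2-fold higher in KO and 2 were lower. Their sum, 720 FPKM in KO and 657 FPKM in WT, differed mostly through *Slc1a2*, at 418 FPKM in KO and 349 FPKM in WT, while *Gfap* was at 25.8 FPKM in KO and 36.3 FPKM in WT. Excitatory neuron markers summed to 469 FPKM in KO and 423 FPKM in WT, and microglia markers to 68.7 FPKM in KO and 69.0 FPKM in WT. Fewer cells of a type and less RNA per cell cannot be told apart in bulk tissue. The part of these differences in the level of *Slc8a1* or of any pump gene was not tested.

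The 4 PMCA genes took nearly the same shares of their summed FPKM in both libraries. *Atp2b1*, the most widely expressed PMCA, made up 49.7% of the PMCA RNA in KO and 49.3% in WT. *Atp2b2* made up 28.9% in KO and 29.8% in WT, *Atp2b4* 16.8% in KO and 16.7% in WT, and *Atp2b3* 4.58% in KO and 4.23% in WT. The 4 genes together were at 372 FPKM in KO and 363 FPKM in WT. *Atp2a2* was almost the only SERCA gene in use, with 99.6% of the SERCA RNA in KO and 99.3% in WT. *Slc8a1* was the second exchanger gene of its family, with 19.7% of the NCX RNA in KO and 15.4% in WT. *Slc8a2*, the main NCX gene of these libraries, was at 66.7 FPKM in KO and 61.9 FPKM in WT, and *Slc8a3* was at 3.90 FPKM in KO and 4.41 FPKM in WT.

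*Atp1b1* made up 80.9% of the beta subunit RNA in KO and 80.3% in WT. *Atp1b2*, the beta subunit typical of glia, was at 165 FPKM in KO and 154 FPKM in WT and made up 14.3% in KO and 13.9% in WT. *Atp1b3* was at 55.8 FPKM in KO and 63.7 FPKM in WT and made up 4.83% in KO and 5.74% in WT. The beta subunits thus kept their order in both libraries, with *Atp1b1* far above the others.

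**Figure D3:**
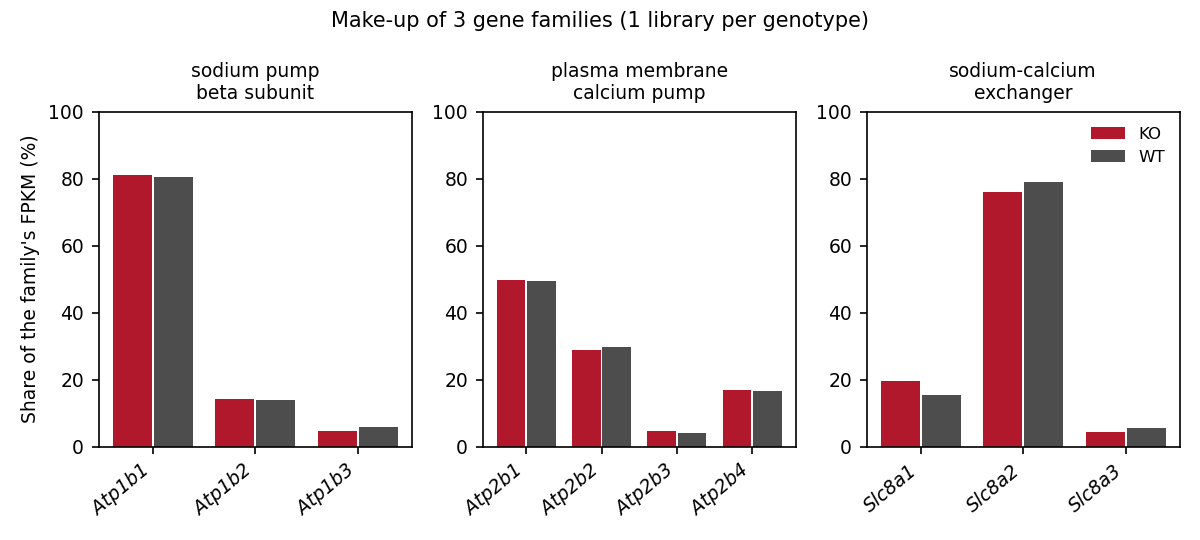
Share of each gene in the summed FPKM of its family, in percent, with KO bars left of WT bars, for sodium pump beta subunits, PMCA pumps and NCX exchangers. PMCA shares are nearly equal in both libraries, *Atp1b1* has 80.9% of the beta subunit RNA in KO and 80.3% in WT, and *Slc8a1* has 19.7% of the NCX RNA in KO and 15.4% in WT.

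Isoform rows were compared by their share of the summed isoform FPKM of the gene. *Atp1b1* and *Atp2b1* had 1 isoform row each, so their shares could not differ, and the optional exon of *Atp2b1* printed above cannot be followed in these files. For the other 5 genes the shift was taken as 50% of the summed absolute differences between shares in KO and WT, where 0 means equal shares and 1 no isoform in common. The shift was 0.083 for *Atp2b3*, 0.054 for *Atp2b2*, 0.048 for *Slc8a1*, 0.045 for *Atp2b4* and 0.022 for *Atp2a2*. The median of the 5 was 0.048, beside 0.050 over 4555 genes with at least 2 isoforms and 10 FPKM in both libraries. In those genes 22.6% had a shift of at least 0.1, and 0 of the 5 did.

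The isoforms are numbered here by their summed level in both libraries, since the table gives no transcript names and an isoform cannot be tied to an annotated transcript or to an exon shown above. *Slc8a1* had 1 main isoform, at 15.7 FPKM in KO and 10.4 FPKM in WT, and this isoform held 90.9% of its RNA in KO and 86.0% in WT. Its second isoform was at 1.58 FPKM in KO and 1.68 FPKM in WT, so the difference of the gene lay in the main isoform. *Atp2a2* had 2 isoforms above 1 FPKM. The first was at 160 FPKM in KO and 140 FPKM in WT, and the second at 101 FPKM in KO and 96.5 FPKM in WT, or 38.6% of the gene in KO and 40.7% in WT.

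In the 3 PMCA genes that list several isoforms, the isoform with the largest share had a smaller share in KO. In *Atp2a2* and *Slc8a1* it had a larger share in KO. The direction was not counted over all genes, so it is not a result about the PMCA genes. For *Atp2b2* the isoform with the largest share was at 64.4 FPKM in KO and 70.6 FPKM in WT (59.9% of the gene in KO and 65.2% in WT). Its second isoform was at 29.0 FPKM in KO and 28.0 FPKM in WT, and the third at 13.1 FPKM in KO and 8.62 FPKM in WT. For *Atp2b3* the first isoform was at 7.92 FPKM in KO and 8.21 FPKM in WT (46.4% in KO and 53.4% in WT), and the second at 5.49 FPKM in KO and 5.14 FPKM in WT. The third isoform of *Atp2b3* was at 3.64 FPKM in KO and 2.01 FPKM in WT, 21.4% of the gene in KO and 13.1% in WT, the widest gap in share (8.28 percentage points) among all 25 rows. For *Atp2b4* the first isoform was at 47.3 FPKM in KO and 48.5 FPKM in WT (75.7% in KO and 80.2% in WT), and the second at 8.55 FPKM in KO and 6.92 FPKM in WT. Isoform FPKM divides fragments that several isoforms share, and the shift of *Atp2b3* lay at percentile 69.8 of the 4555 genes.

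**Figure D4:**
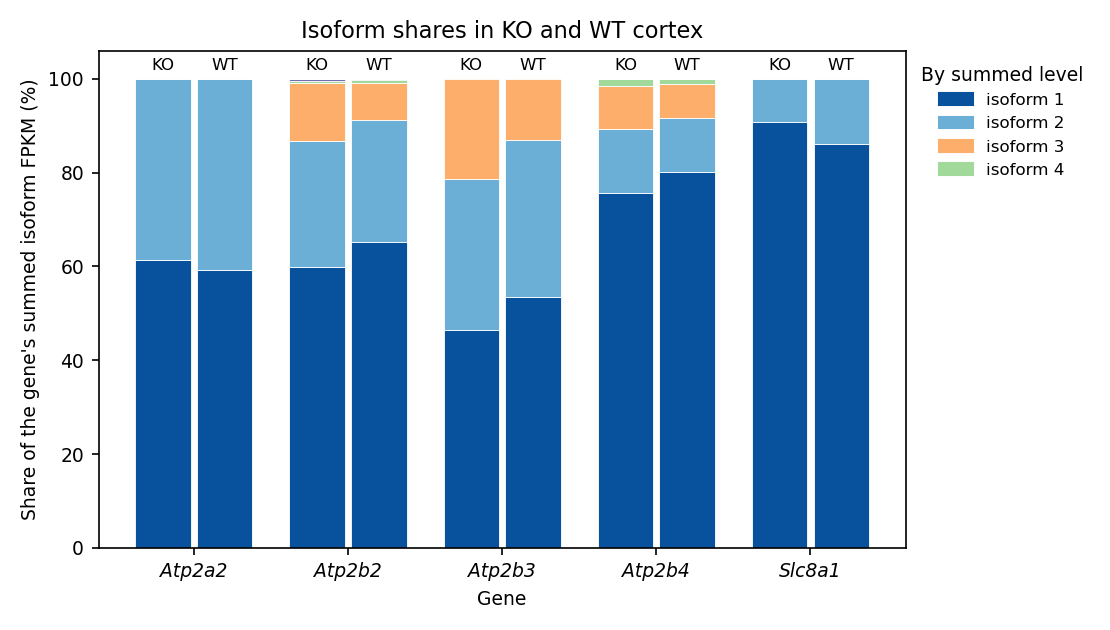
Share of each isoform in the summed isoform FPKM of its gene, in percent, with the KO bar left of the WT bar, for the 5 genes with several isoforms. Isoforms are coloured by their rank in summed level, and the third isoform of *Atp2b3* has 21.4% in KO and 13.1% in WT.

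The related genes were described from 7 lists with 74 symbols, of which 67 gene models were found and 52 averaged 1 FPKM or more. In the counts by list below, measured genes are those that averaged 1 FPKM or more. Of these 52, 5 were at least 1.2-fold higher in KO and 7 lower, beside 10.8% and 8.14% of all genes, and their median log2 ratio was -0.02, beside 0.02 over all genes. With KO divided by the ratio of the KO to the WT upper quartile, 3 were higher and 10 lower. With KO scaled by the median ratio, 4 were higher and 9 lower. The shares over all genes were not taken under these scalings. The scaled counts therefore have no background beside them and are not a result about the lists. None of the 52 reached 2-fold. Several symbols in the lists are older or newer names of the same gene, and the table holds 1 of each such pair.

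Among 15 measured partners of the sodium pump, *Fxyd6* was higher and *Fxyd1* lower, both small membrane proteins that tune the pump. *Fxyd6* was at 46.9 FPKM in KO and 38.6 FPKM in WT, and *Fxyd1*, or phospholemman, at 13.3 FPKM in KO and 18.4 FPKM in WT. Of the partners of the plasma membrane calcium pumps, 5 of 6 had a ratio below 0, with 1 past 1.2-fold in each direction. Over all genes, 5951 of 13042 had a ratio below 0, and a count of 6 genes is not a result about this list. *Nptn*, whose product neuroplastin is an auxiliary subunit of PMCA pumps, was at 476 FPKM in KO and 600 FPKM in WT. *Calm2*, a gene for calmodulin, was at 1504 FPKM in KO and 1774 FPKM in WT. *Cask*, a scaffold kinase that binds PMCA4, was at 32.8 FPKM in KO and 26.9 FPKM in WT.

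Of 6 other measured sodium-calcium exchangers, *Slc24a2* was higher, at 119 FPKM in KO and 93.2 FPKM in WT, and 0 were lower. Like *Slc8a1* it encodes a plasma membrane exchanger, one that also moves potassium. *Slc24a3*, of the same kind, was at 27.2 FPKM in KO and 26.2 FPKM in WT. The list of other intracellular calcium pumps and their regulators has 9 gene models. Of its 3 measured genes, 1 was lower and 0 higher. That gene was *Atp2a3*, at 0.962 FPKM in KO and 1.53 FPKM in WT, which was named after its value was seen. *Atp2c1*, the calcium and manganese pump of the Golgi, was at 101 FPKM in KO and 86.6 FPKM in WT, and *Calr*, a calcium-binding chaperone of the endoplasmic reticulum, at 111 FPKM in KO and 127 FPKM in WT.

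In calcium release and store refilling, 1 of 9 measured genes was higher and 2 lower. *Itpr1*, the main inositol trisphosphate receptor of neurons, was at 76.6 FPKM in KO and 57.7 FPKM in WT. *Stim2*, a sensor of calcium in the endoplasmic reticulum, was at 20.9 FPKM in KO and 29.8 FPKM in WT. *Orai2*, a store-operated calcium channel, was at 6.39 FPKM in KO and 8.95 FPKM in WT and was named after its value was seen. In mitochondrial calcium uptake, 0 of 7 measured genes passed 1.2-fold, with *Vdac1*, a channel of the outer membrane, at 260 FPKM in KO and 253 FPKM in WT, *Efha2* at 104 FPKM in KO and 113 FPKM in WT, and *Ccdc90a* at 7.94 FPKM in KO and 6.60 FPKM in WT. Of 6 calcium buffers and sensors, 1 was higher and 2 lower. *Pvalb*, the buffer of fast-spiking interneurons, was at 36.3 FPKM in KO and 28.9 FPKM in WT, *Vsnl1*, a neuronal calcium sensor, at 298 FPKM in KO and 372 FPKM in WT, and *S100b*, abundant in glia, at 35.7 FPKM in KO and 45.0 FPKM in WT. *Hpca*, another neuronal sensor, was at 199 FPKM in KO and 171 FPKM in WT.

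The place of each gene model on GRCm38 bears on what its FPKM counts. The deposited table places *Slc8a1* (ENSMUSG00000054640) on chromosome 17 from 81388691 to 81649607. GENCODE vM21 annotates it on the minus strand from 81373105 to 81738377. On that strand the deposited locus starts 88770 bases further in and ends 15586 bases earlier. The missing 15586 bases equal the length of the 3′ untranslated region of the longest annotated transcript, so that region lay outside the deposited locus. For *Atp2b4* (chromosome 1, 133702674 to 133801041, minus strand) the deposited locus ends 3217 bases before the annotated one, and for *Atp2b1* (chromosome 10, 98915152 to 99026143, plus strand) it starts 746 bases later. *Atp2b3* (chromosome X, 73503086 to 73571005, plus strand) has the annotated ends.

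*Atp1b1* lies on chromosome 1 from 164437267 to 164458355 on the minus strand, and 18.7% of its annotated exonic bases overlap exons of *Nme7* on the plus strand. *Nme7* was at 10.2 FPKM in KO and 9.60 FPKM in WT. The libraries were made with a strand-specific kit, but whether strand was used in counting is not given in the sources used here. The deposited locus of *Atp2a2* (chromosome 5, 122421693 to 122502225) is shared with *Anapc7* and *Gm15846* and reaches beyond the gene, which GENCODE places from 122453513 to 122502225 on the minus strand. The locus of *Atp2b2* (chromosome 6, 113745669 to 114052108) is likewise shared with *Gm15082* and *Gm15083*, and that of *Slc8a1* with *Gm11096*. Exons of *AC122399.1* on the plus strand overlap 1.57% of the annotated exonic bases of *Slc8a1*.

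Stretches of 50 bases that recur in transcripts of another gene could divide fragments between genes. Such stretches made up 4.58% of the *Atp2a2* transcript with the longest coding part, shared with the processed pseudogene *Gm30970*, and 2.13% of that of *Atp2b1*, shared with the pseudogene *Gm29808*. For *Atp2b2* and *Atp2b3* the share was 0.154% and 0.180%, nearly all between the pair. It was 1.03% for *Atp2b4* and 0 for *Atp1b1* and *Slc8a1*. Nearly the whole length of each PMCA transcript searched here was thus particular to its gene at 50 bases. Other transcripts of the genes, which for *Atp2b2* and *Slc8a1* include ones with a longer 3′ untranslated region, were not searched.

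TGCATG was counted on the RNA strand of the longest coding transcript of each gene. In the coding part it was found once in *Atp2a2* and once in *Slc8a1*, beside 29.2% of 21832 annotated genes that hold it there. Both sites are shown with the motif in capitals.
Atp2a2, chr5:122458485-122458514, minus strand: cgtgggtgctgcTGCATGgtggttcatcgc
Slc8a1, chr17:81648422-81648451, minus strand: aggctgtcagtaTGCATGaagtcaacatgg

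In the 3′ untranslated region TGCATG was found 7 times in *Atp2b4*, 6 times in *Slc8a1*, 2 times in *Atp2b1* and once in *Atp2a2*, and not in *Atp1b1*, *Atp2b2* or *Atp2b3*. This is 1.23 sites per kilobase for *Atp2a2*, from that 1 site, 0.968 for *Atp2b4*, 0.661 for *Atp2b1* and 0.385 for *Slc8a1*, beside 0.359 per kilobase over 20944 genes, of which 32.1% held at least 1. The regions differ in length, and such a match is not a binding site. All of these *Slc8a1* sites and some of those of *Atp2b4* lie outside the deposited locus of their gene. Introns, where most known RBFOX sites lie, were not searched here.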

How the data were processed

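RNA from the cerebral cortex of 1 Rbfox3-/- (KO) and 1 WT library was analysed. The submitters' processing notes name TopHat, Cufflinks and GRCm38 (versions not given in the sources used here), and the authors deposited FPKM for genes and isoforms. The labels' extraction note names cortex or hippocampus and a NucleoSpin kit, where the paper's methods name RNeasy. The deposited p-values, q-values, ratios, lists of changed genes and term lists are the authors' own comparisons and were not used. FPKM holds no read counts, so the depth is unknown and no counting interval is given.

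Ratios were the log2 of KO + 1 over WT + 1 FPKM, and a gene counted past 1.2-fold among genes averaging 1 FPKM or more. Sequences and positions came from GENCODE vM21 (GRCm38). Named were all 7 genes, in each list the 2 most abundant genes and those with the highest and lowest ratio at a mean of at least 5 FPKM, and isoforms with at least 10% of their gene, except that some items that the rule names are not reported here. The members and lists were chosen with earlier results of these data known. Alternatives were the added FPKM, 2 scalings, filters on low values and isoform sums. Python 3.11.15, pandas 2.3.3 and NumPy 2.4.6 were used, and the code was tested on simulated data.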

Additional observations from a re-analysis of the deposited data

How the results depend on the processing

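The log2 ratios were taken again with 0.1 FPKM or nothing added and with isoforms summed. They were also taken with KO scaled by the median ratio of genes averaging 10 FPKM or more. A further setting divided KO by the ratio of the KO to the WT upper quartile. Across these settings the log2 ratio of *Slc8a1* lay between 0.46 and 0.52. That of *Atp2b2* lay between -0.03 and -0.01, and those of the other 5 genes between 0.02 and 0.15. In each of these settings in which members were counted, 1 member was higher and 0 were lower. Related genes higher in KO numbered 8 without a filter on low values and 3 with upper-quartile scaling, against 5 as reported, and 4 or 5 otherwise. Those lower in KO numbered 8 without a filter, 10 with upper-quartile scaling, 9 with scaling by the median ratio, 8 with 0.1 FPKM added and 6 among genes averaging 5 FPKM or more, against 7 as reported. The unfiltered count covers 67 gene models in place of 52, and for the scaled counts the cause was not tested. The shares over all genes were not taken again in these settings. With minor isoforms left out, the isoform shifts lay between 0.022 and 0.083, as they did with all isoforms. No replicate could be left out and no paired analysis was possible because each genotype has 1 library. The unknown depth and the lack of replicates limit each value.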
